A study of Mus musculus with 2 samples.

Results

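Expression was followed for 10 genes that ERK signalling switches on: the feedback inhibitors Spry1, Spry2, Spry4, Spred1 and Spred2, the ETS transcription factors Etv4 and Etv5, the immediate early genes Egr1 and Ier3, and the receptor gene Epha2. They were taken by the gene name that the array gives to its non-control probes, and all 10 were present, with 15 probes, among 37008 genes named on the array. Of those genes 21018 were measured on both arrays, and all 10 members are among them. The cells were of 46C, a mouse embryonic stem cell line that carries a green fluorescent protein reporter in the Sox1 gene. Both cultures were kept in serum with LIF on a feeder layer that was taken away before RNA was collected. The array of the first group is labelled shCtrl, a control short hairpin, although its title says WT, and the array of the second is labelled shLincU, a knockdown of LincU, which is a long noncoding RNA. There was 1 array in each group, so no test between groups was possible and no difference below has a replicate check. The labels do not say which vector carried the hairpins, whether cells were cloned or pooled, or how long the knockdown lasted. The level of LincU itself was not analysed here, and directions therefore rest on the labels.

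ERK is the last kinase of the cascade that runs from growth factor receptors through RAS, RAF and MEK. In mouse embryonic stem cells it is driven mainly by FGF4, which the cells make themselves, and its activity moves them out of the naive state towards differentiation. Active ERK also turns on genes that restrain it. Sprouty proteins interfere with the coupling of receptors to RAS and RAF, and SPRED proteins bring the RAS inactivator neurofibromin to the membrane. ETV4 and ETV5 are transcription factors of the PEA3 branch of the ETS family, made in response to FGF signals. EGR1 and IER3 belong to the rapid response of cells to growth factors, and EPHA2 is a receptor tyrosine kinase for ephrin-A ligands whose gene responds to RAS and ERK. The study's title concerns a restraint of ERK by LincU, and transcripts of these genes are common readouts of ERK activity.

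The signal of a spot is the intensity that the scanner software gives after background correction. The shLincU array was dimmer as a whole: its 75th percentile over probes was 420, against 626 for shCtrl. Levels are therefore given as log2 of the signal relative to that percentile, and a difference is the log2 level on the shLincU array minus that on the shCtrl array. Without this scaling, 13 of the 15 probes had a lower signal on the shLincU array. All 15 probes were well above background on both arrays, none was saturated and none was marked as an outlier. The scanner error of a member gene's difference, which is mostly preset in the software, was between 0.12 and 0.21. Among 295 probes spotted 10 times or more, the median SD of the difference between spots of a probe was 0.048, which covers hybridisation and scanning but not cultures.

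**Figure D1:**
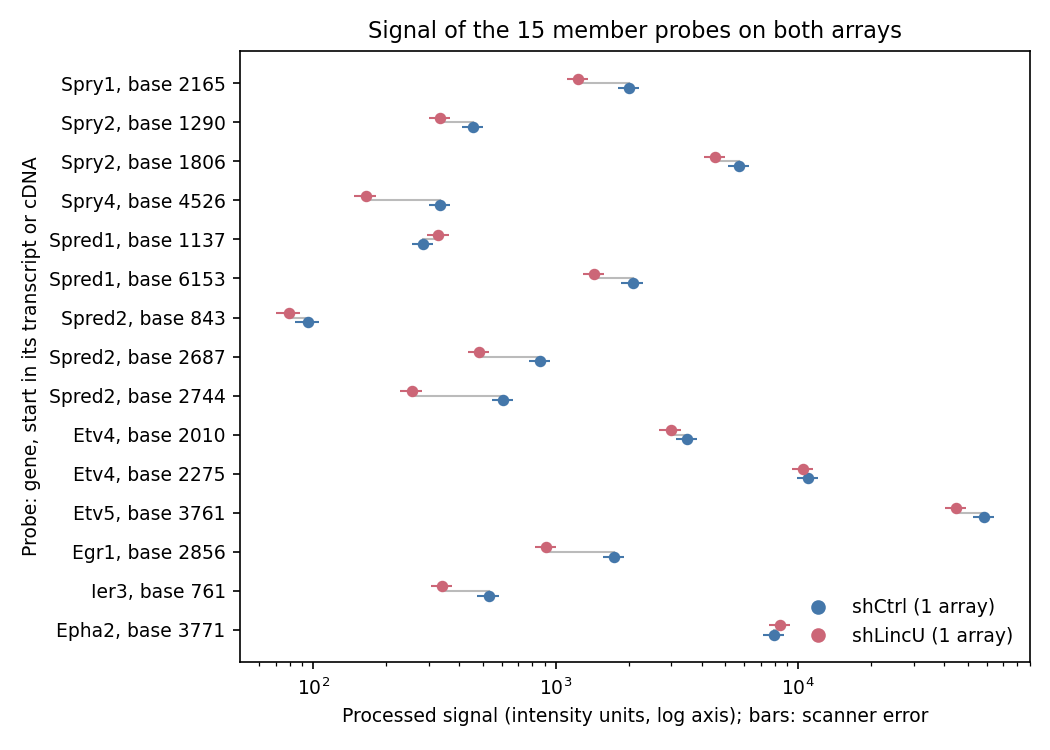
Processed signal (intensity units, log axis) of the 15 probes, with the shCtrl array in blue and the shLincU array in red; bars are the scanner error. Only the Epha2 probe and the Spred1 probe at base 1137 had a higher signal on the shLincU array before scaling.

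The members did not move in one direction. There were 5 genes higher on the shLincU array (Epha2, Etv4, Spred1, Etv5 and Spry2) and 5 lower (Spry4, Egr1, Spred2, Spry1 and Ier3), while 53.1% of all measured genes were above 0. The median difference of the 10 was 0.061, and that of all 21018 genes was 0.020. None of the 10 differed by 2-fold or more, a size that 1.14% of all genes reached upwards and 1.53% downwards. At 1.5-fold, Epha2 was the only member higher, where 4.78% of all genes were higher, and no member was lower, where 4.84% of all genes were lower. All members but Epha2 lay inside the central 90% of all genes, from -0.58 to 0.57. The 95% interval from the scanner error left out 0 for 3 higher members (Epha2, Etv4 and Spred1) and 1 lower member (Spry4). It did so for 10.6% of all genes upwards, 10.3% downwards and 20.9% in either direction. This interval does not include the spread between probes of a gene. For Spred1 that spread was wide, with probes at 0.048 and 0.79.

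**Figure D2:**
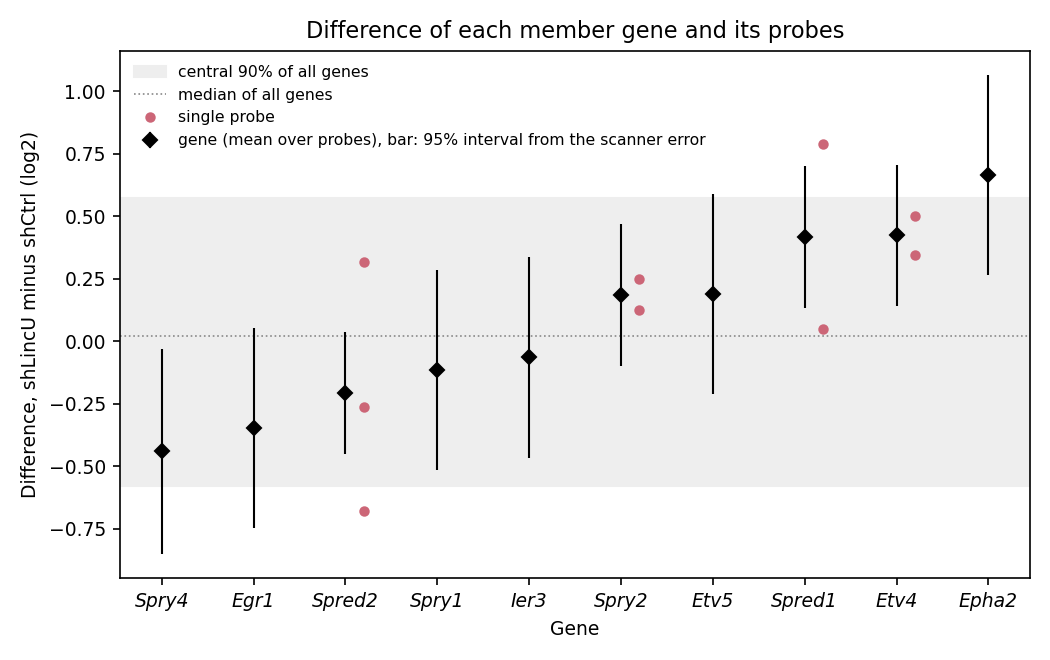
Difference of each gene (shLincU minus shCtrl, log2) as black diamonds with bars for the 95% interval from the scanner error, and of single probes as red points where a gene has several; the grey band is the central 90% of all genes. Epha2 alone lies above the band, and the probes of Spred1 and Spred2 are spread more widely than those of Etv4 and Spry2.

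The probes of the SPRED genes disagreed more than those of the other members with several probes. Spred1 had a difference of 0.42 over its 2 probes, and Spred2 had -0.21 over its 3 probes. The upstream Spred1 probe starts at base 1137 of the transcript (chr2:116997721-116997780 in mm9, the build of all probe positions here) and is listed for 2 RefSeq transcripts. Its signal was 283 ± 28.8 (scanner error) with shCtrl and 328 ± 33.1 with shLincU, a difference of 0.79. The downstream Spred1 probe starts at base 6153 (chr2:117007850-117007909), is listed for 1 RefSeq transcript, and gave 2073 and 1439, a difference of 0.048. The upstream probe was thus well above the upper end of the band of all genes and the downstream probe near their median. The SD between the 2 probes was 0.52, and 6.84% of the 7144 genes with several probes had a larger one.

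Spred2 had a probe across an exon junction, a probe further downstream and a probe on a separate cDNA. The junction probe, which starts at base 843 and spans 2522 bases of the genome (chr11:19905935-19908456), gave signals of 95.05 and 79.49 and a difference of 0.32. The probe at base 2687 (chr11:19922416-19922475) gave 863 and 484, a difference of -0.26, and its spot lay beside other spots that differed between the arrays. The last probe stands for a cDNA without a RefSeq transcript, 25136 bases upstream of the junction probe in the direction of transcription (chr11:19880739-19880798). Its signals were 606 and 255 and its difference was -0.68, the lowest of the 15 probes. The mean of Spred2 without this probe was 0.028, and the probe at base 2687, the brightest of the 3, gave -0.26 alone, so the sign of Spred2 depends on which probes are used. The SD between the Spred2 probes was 0.50, and 7.89% of genes with several probes had a larger one.

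The sequences of the 3 probes on which the Spred1 and Spred2 values turn are given as the array lists them, each 60 bases long.
Spred1 upstream probe: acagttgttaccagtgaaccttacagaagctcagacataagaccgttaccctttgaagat
Spred2 junction probe: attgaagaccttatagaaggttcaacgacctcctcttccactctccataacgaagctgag
Spred2 cDNA probe: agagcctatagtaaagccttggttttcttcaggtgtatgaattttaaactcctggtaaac
The 60 bases of the junction probe are spread over 2522 bases of the genome, so it pairs in full only with spliced RNA, while the cDNA probe lies in 1 block. Which transcript the cDNA probe detects was not tested.

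The Sprouty genes, feedback inhibitors of receptor tyrosine kinase signalling, went both ways. Spry4, often used as a sensitive readout of FGF and ERK activity, was the lowest member. Its probe (chr18:38745923-38745982) gave 334 ± 33.7 with shCtrl and 165 ± 17.1 with shLincU, a difference of -0.44 (scanner error 0.21). This was the only lower member whose 95% interval from the scanner error (-0.85 to -0.031) left out 0, and 8.49% of all genes lay lower still. Spry1 gave 1999 and 1239 (chr3:37543194-37543253), a difference of -0.12 that is smaller than its scanner error of 0.20. Spry2 was measured by 2 probes that lay close together, one at base 1290 with 456 and 334 and one at base 1806 with 5676 and 4528 (chr14:106291901-106291960 and chr14:106291385-106291444). Their differences were 0.12 and 0.25, and the mean of 0.19 had an interval from -0.097 to 0.47. The span from Spry4 to Spry2 was 0.63. Spry3, the remaining gene of the family, was not well above background on either array.

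Both ETS factors were higher relative to the bulk of genes, and both were lower with scaling to spike-in controls (Etv4 -0.47, Etv5 -0.70). Etv4 gave 3487 and 2974 at its probe at base 2010 and 10969 and 10420 at its probe at base 2275 (chr11:101631322-101631381 and chr11:101631057-101631116). After scaling the probes differed by 0.35 and 0.50, so the 2 measurements of this gene had the same sign and an SD of 0.11, below the 0.18 that is the median for genes with several probes. The gene's difference was 0.42 (scanner error 0.14), and 90.8% of all genes lay below it. Etv5 had signals of 58200 ± 5820 and 44547 ± 4455 (chr16:22381387-22381446) and a difference of 0.19, smaller than its scanner error of 0.20. Etv4 and Etv5 are closely related and respond to the same signals in many tissues, but only for Etv4 did the scanner error interval (0.14 to 0.71) leave out 0.

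The immediate early genes were lower or near 0. Egr1, a zinc finger transcription factor, gave 1734 ± 173 with shCtrl and 915 ± 91.6 with shLincU (chr18:35024395-35024454). Its difference was -0.35, with a scanner error interval from -0.75 to 0.052, and 12.1% of all genes lay lower. Ier3, a gene of cell survival and stress, gave 529 and 340 (chr17:35959528-35959587) and a difference of -0.064, smaller than its scanner error. Each of these genes was seen by a single probe. Transcripts of this class are made and degraded within a short time after a stimulus, and the labels do not say when after feeding the cells were harvested.

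Epha2 had the largest difference of the set. Its probe (chr4:140885139-140885198) gave 7928 ± 793 with shCtrl and 8442 ± 844 with shLincU. Its signal was thus higher before any scaling, but by less than the scanner error of either array. After scaling the difference was 0.67 (scanner error 0.20, interval 0.27 to 1.07), or 1.59-fold, and it was -0.23 with scaling to spike-in controls. Of all genes, 96.5% lay below Epha2, and 7.21% were at least as far from 0 in either direction. It rests on 1 probe.

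The promoters of 7 members were taken from a RefSeq table (build GRCm38.p6), and the 250 bases before the transcription start were searched on both strands. Those of Etv4, Egr1 and Spry4 were not searched, so the motif counts below say nothing about these genes. The letters searched were the ETS cores GGAAGT and CGGAAG, which can overlap, the cyclic AMP response element TGACGTCA, and the CArG box of serum response factor. An ETS core was found in 4 of the 8 promoters of these 7 genes (Epha2, Etv5 at 1 of its starts, Spred1 and Spred2), while 27.2% of 32851 promoters of the same length held one. Epha2 also held a cyclic AMP response element, found in 1.55% of promoters, and none of the 7 held a CArG box, found in 1.47%. The genes with a core included Epha2, the highest member, and Spred2, which had a negative difference. A match describes the letters and not a bound site. Promoters of 3 genes are given with these motifs in capitals (ACTTCC and CTTCCG are the ETS cores on the other strand), because they belong to the member past 1.5-fold and to the genes whose probes disagreed.
Epha2 (chr4:141300971-141301220, + strand): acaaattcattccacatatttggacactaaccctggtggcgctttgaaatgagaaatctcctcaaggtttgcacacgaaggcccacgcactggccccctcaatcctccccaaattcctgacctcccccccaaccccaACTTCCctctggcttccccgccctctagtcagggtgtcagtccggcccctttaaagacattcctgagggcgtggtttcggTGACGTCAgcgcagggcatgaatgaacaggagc
Spred1 (chr2:117120821-117121070, + strand): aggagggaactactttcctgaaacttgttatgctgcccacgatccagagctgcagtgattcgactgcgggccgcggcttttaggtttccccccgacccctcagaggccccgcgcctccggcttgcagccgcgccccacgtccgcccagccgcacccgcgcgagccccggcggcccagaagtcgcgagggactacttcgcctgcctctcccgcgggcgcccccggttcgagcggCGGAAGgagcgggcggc
Spred2 (chr11:19924192-19924441, + strand): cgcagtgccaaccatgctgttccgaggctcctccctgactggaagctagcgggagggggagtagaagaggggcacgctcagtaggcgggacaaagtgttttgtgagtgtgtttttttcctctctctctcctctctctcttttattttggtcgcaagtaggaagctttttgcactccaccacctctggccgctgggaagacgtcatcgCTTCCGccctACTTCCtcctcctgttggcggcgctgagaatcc
The cores of Spred1 and Spred2 lay within 43 bases of the start, and that of Epha2 began 113 bases before it. Etv5 had its core 217 bases before the start.

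The member probes were also set out by their position on the slide. Of the 9 member probes in the upper rows (the first 50% of rows) 7 were higher and 2 lower, and of the 6 in the lower rows 2 were higher and 4 lower. The share of all measured spots above 0 in either part was not counted. Probes of the same gene are counted apart here, and both Etv4 probes lay in the upper rows. Egr1, Spry4 and Ier3, all of them lower members, had their only probes in the lower rows. The 2 Spred1 probes lay on either side, with the higher one in row 165 and the one near 0 in row 211. Differences varied more in the lower rows: the SD of the difference over measured spots was 0.44 there and 0.35 in the upper rows. The median was 0.034 and 0.032, and the median of the 180 to 260 measured spots around each member probe lay between -0.0036 and 0.064. Only the Spred2 probe at base 2687 lay beside discordant spots. The part of the slide position in the members' signs was not tested.

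**Figure D3:**
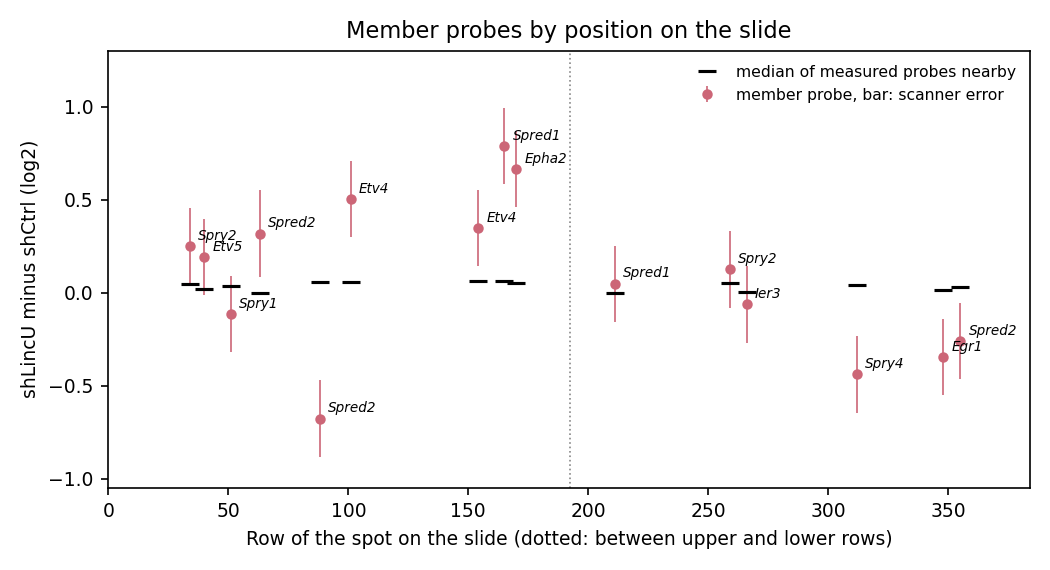
Difference of each member probe (log2, with its scanner error) by the row of its spot, and, as black dashes, the median of the measured probes within 10 rows and 10 columns of it. The dashes lie between -0.0036 and 0.064. Of the member probes, 7 of 9 in the upper rows are above 0 and 4 of 6 in the lower rows are below it, and these shares were not counted over all spots.

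The members' signs were set beside those from other ways of processing the data. In 13 alternative settings other than scaling to spike-in controls, all 123 member values kept the sign of the main value. Of these, 120 were within the scanner error of it, and the 3 others were of Spred1. Part of this was fixed in advance. Settings that change the background filter, the probes or the spots used could not alter the 6 members with 1 probe. Dropping the background filter, using another detection flag and keeping outlier spots could alter none of the 10. All their probes were well above background and none was an outlier. The median over probes and leaving out spots beside discordant spots could alter only Spred2. The count of 123 therefore includes many values that had to equal the main value. Leaving out the Spred2 cDNA probe was not among these settings, and it put Spred2 at 0.028. The median of all genes lay between -0.020 and 0.14 in these settings, the highest without a background filter. Epha2 lay between 0.61 and 0.67, Etv4 between 0.37 and 0.50, Egr1 between -0.39 and -0.30, and Spry4 between -0.48 and -0.28. Spred1 lay between 0.048 and 0.79, depending on which probe was used. Scaling to spike-in controls instead moved the median of all genes by -0.89 and put all 10 members below 0, so each direction here is relative to the bulk of genes.

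**Figure D4:**
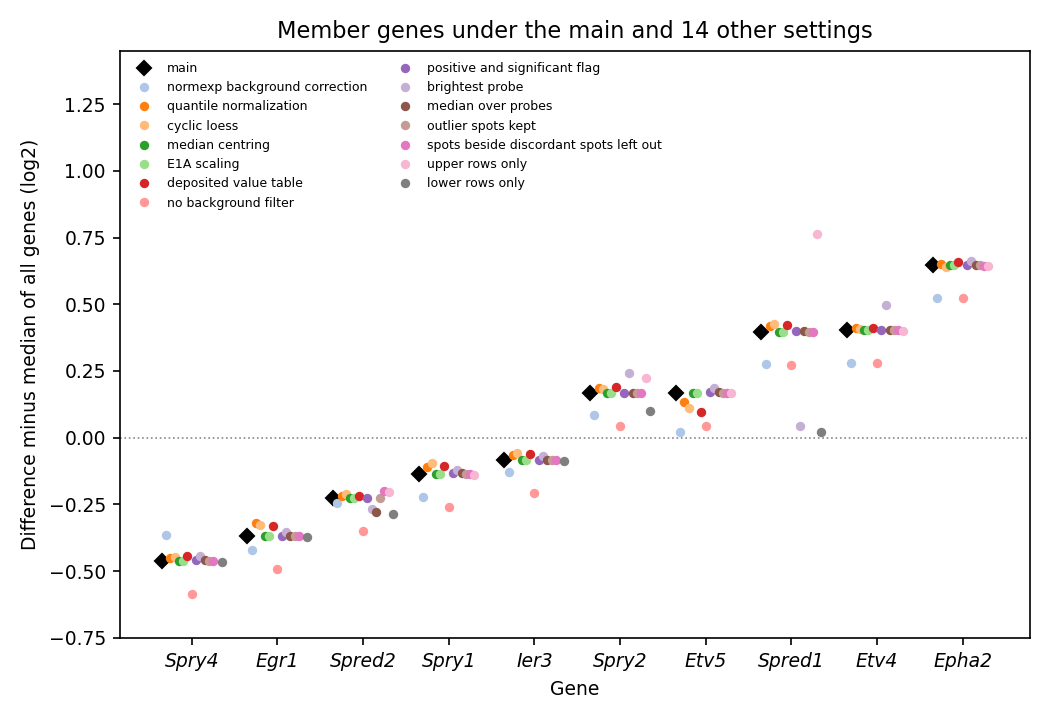
Difference of each member minus the median of all genes (log2) under the main processing (black diamonds) and 14 other settings (coloured points). The genes keep their side of 0 in each setting, and Spred1 has the widest range, between 0.023 and 0.76. Median centring and scaling to spike-in controls shift all genes alike, so after this subtraction they equal the main value by construction. Without the subtraction, scaling to spike-in controls put all 10 members below 0.

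Lists of related genes were set beside the members, without a test. The phosphatases of the DUSP family remove phosphate from MAP kinases, and some of them are also made in response to ERK. Their median was 0.34 with 8 of 11 genes above 0, where 53.1% of all genes were above 0. It was 0.24 without a background filter, where that of all genes was 0.14, and -0.56 with scaling to spike-in controls. Dusp4 was the only one past 1.5-fold, at 0.87, where 4.78% of all genes were higher by that size. Other feedback inhibitors (13 measured) had a median of -0.0012 and none past 1.5-fold in either direction. Among them Spred3, the paralogue of Spred1 and Spred2, was at 0.12 and at 0.29 without a background filter; it is named for its kinship and lies outside the naming rule. Other ETS factors (14 measured) had a median of 0.060 and none past 1.5-fold.

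Other immediate early genes (19 of 20 measured) had a median of 0.14, with 2 past 1.5-fold, both higher, where 4.78% of all genes were higher by that size. These were Fosl2, which forms AP-1 dimers with JUN proteins, at 1.104 and Zfp36, which speeds the decay of early messenger RNAs, at 0.60. Fosl2 was at 0.51 without a background filter and Zfp36 at 0.51 with normexp background correction, both below 1.5-fold. The upstream pathway from FGF ligands to ERK (23 measured) had a median of 0.087, with the ligand genes Fgf8 and Fgf5 higher by 2.003 and 1.41 and the scaffold gene Ksr1 lower at -0.92. The 2 probes of Ksr1 had an SD of 0.76, and the gene was at -0.38 without spots beside discordant spots, at -0.29 with normexp background correction and at -1.46 with its brighter probe. Ephrin-A ligands and other EPHA receptors (10 measured) had a median of 0.0095, with 0.30 in the upper rows alone and -0.43 in the lower rows alone. Epha7 alone was past 1.5-fold, at 0.67, where 4.78% of all genes were higher by that size. It was below that size in 4 alternatives, with values from 0.41 to 0.57, and at -0.22 with scaling to spike-in controls.

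**Figure D5:**
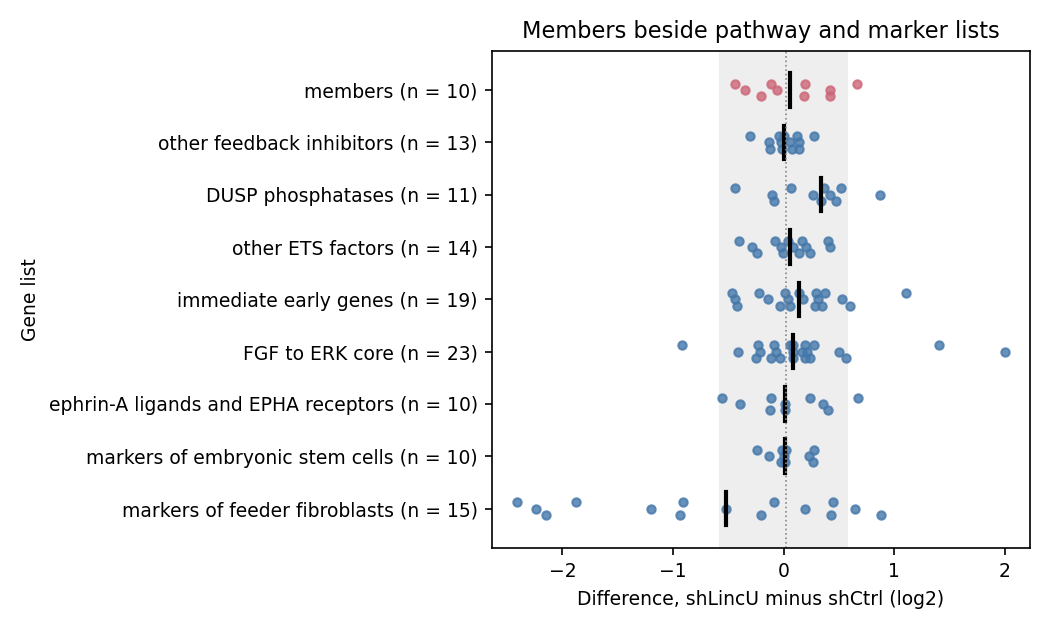
Difference of every measured gene (log2, points) in the members and in 8 lists, with the median of each as a black bar and the central 90% of all genes as a grey band. The members have a median of 0.061 and the DUSP phosphatases one of 0.34, and markers of feeder fibroblasts reach -2.41.

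Markers of the stem cells and of the feeder layer were read on the same arrays. All 10 stem cell markers were measured, with a median difference of 0.0074 and none past 1.5-fold; Pou5f1 was at -0.024 and Sox2 at 0.00041. Of 17 fibroblast markers 15 were measured on both arrays, Lum on the shLincU array only and Pdgfra on the shCtrl array only. Their median difference was -0.52, with 7 lower and 2 higher at 1.5-fold, where 4.84% of all genes were lower and 4.78% higher. The median was -0.14 with normexp background correction, -0.17 in the lower rows alone and -0.088 without a background filter. Dcn, Ccl2 and Lox were lowest, at -2.41, -2.24 and -2.15 (-1.41, -2.04 and -1.31 with normexp), and Tagln and Col3a1 were higher by 0.88 and 0.64, the latter 0.46 without a background filter. The summed level of the 15, in multiples of the 75th percentile, was 63.4 with shCtrl and 67.4 with shLincU. These sums are carried by the probes of Vim (outside the naming rule) and Tagln, with log2 levels of 4.81 and 4.03 with shCtrl and 4.73 and 4.91 with shLincU, and they do not measure the amount of feeder RNA. In bulk RNA, fewer feeder cells and less RNA per cell cannot be told apart. Whether feeder RNA had a part in the lower values of Spry4, Egr1 and Spry1 was not tested.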

How the data were processed

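Cy3-labelled cRNA was put on Agilent arrays with 1 colour and 1 array per group. Per the submitters' processing notes, the authors read the intensity values with the scanner software Feature Extraction 10.7.1.1. Both arrays lay on 1 slide, per the file headers. Per the file headers, processed intensity was detrended and background-corrected, and mean and background intensity are uncorrected. Other columns of the deposited files are spot flags and positions. The deposited value table holds log2 values with equal quantiles on both arrays, with a normalization that the sources used here do not state.

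Levels were processed intensities on the log2 scale, less the 75th percentile of each array's non-control probes. Outlier spots were left out (98 and 138), spots of a probe were averaged, and a gene was the mean over probes well above background on both arrays. Members were taken by the array's gene name. Of the other probes, 32980 were named by RefSeq accession (GRCm38.p6), 10223 through a symbol, 520 through a synonym, and for 12867 the name in the file was used. A spot was beside discordant spots when at least 2 neighbours, within 2 rows and 1 column, differed 2-fold in one direction. All 10 members are named, with list genes past 1.5-fold (up to 3 per direction). Members and lists were chosen with earlier results of these data known. No test was run, since each group holds 1 array. The calculation was tested on simulated data. Python 3.11.15, pandas 2.3.3, R 4.3.3 and limma 3.58.1 were used.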

Additional observations from a re-analysis of the deposited data

How the results depend on the processing

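No paired analysis was possible because the design holds a single array for either hairpin, so leaving out an array was not possible either. Alternatives were normexp background correction (offset 50), quantile normalization, cyclic loess, median centring, scaling to 8 E1A spike-in probes, the deposited value table, no background filter, another detection flag, the brightest probe, the median over probes, outlier spots kept, spots beside discordant spots left out, and the upper or lower rows alone. With E1A scaling the members' median was -0.83, with 7 members past 1.5-fold and 4 past 2-fold, where 84.8% and 32.5% of all genes were, because this setting lowers all genes alike. It also reversed the sign of the higher members Epha2 (-0.23), Etv4 (-0.47), Spred1 (-0.47), Etv5 (-0.70) and Spry2 (-0.71). Of the other named genes past 1.5-fold, it reversed Dusp4 (-0.020), Zfp36 (-0.29), Epha7 (-0.22), Tagln (-0.011) and Col3a1 (-0.25). In the upper rows alone 2 of 7 members were past 1.5-fold (8.32% of all genes) with a median of 0.25, and in the lower rows 0 of 6 (10.8% of all genes) with a median of -0.16. With the 95% scanner error interval in place of 1.5-fold, 4 members passed (Epha2, Etv4, Spred1 and Spry4), where 20.9% of all genes did. That interval leaves out the spread between probes, which was wide for Spred1. Spred1 was at 0.79 in the upper rows and at 0.048 in the lower rows and with the brightest probe. The cause of the smaller feeder marker values with normexp was not tested. The number of arrays limits precision.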
